A study of Mus musculus with 9 samples.

Results

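Mouse muscle labelled beta-arrestin knockout and PBS was set against wild type mouse muscle labelled PBS, with 1 RNA-seq library on each side. The pair was chosen by label and makes up 2 of the 9 libraries of the series, which covers muscle and kidney. Both belong to set C, a letter carried by the names of the tables. Set C also holds a library labelled beta-arrestin knockout given DKK1 and a wild type library given DKK1, a pair that shares no library with the PBS pair. A further wild type PBS muscle library, called library 1 here, is in set B with a tumour PBS and a tumour MDC library, and the set C wild type PBS library is called library 2. The labels do not say which beta-arrestin gene was deleted, whether in all cells, or the strain, age, muscle and number of animals, and DKK1, PBS and MDC are named with no dose. The tables held 24923134 counts for the library labelled knockout PBS and 21358854 for wild type library 2. With 1 library a side there is no replicate of the comparison, so its differences are given by size, and intervals on ratios cover counting error only.

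Beta-arrestins are adaptor proteins that bind activated receptors of the G protein-coupled family, end their signal to the G protein and carry them into clathrin-coated pits. Arrb1 and Arrb2 encode the 2 forms found outside the eye. In muscle they are best known for damping beta-adrenergic signalling. The series title concerns the uptake of LRP6, a Wnt co-receptor that binds the secreted inhibitor DKK1, and the wasting of muscle in cancer.

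The RNA of neither beta-arrestin was 2-fold lower where the label says knockout. Arrb1 (RefSeq, GRCm38.p6, chr7:99535147-99606772) had 20.5 CPM, that is counts scaled to the library's TMM-adjusted size, in the library labelled knockout PBS, against 20.3 CPM in wild type library 2 and 17.3 CPM in wild type library 1. The ratio to wild type library 2 was 1.01 (95% interval 0.891 to 1.15), and its log2 value of 0.02 became -0.12 with total counts and -0.25 with totals without structural RNA. Arrb2 (chr11:70432485-70440828) had 9.61 CPM in the labelled knockout, against 7.86 CPM in wild type library 2 and 7.59 CPM in wild type library 1. The DKK1 library labelled knockout had 28.2 CPM of Arrb1, against 22.1 CPM in wild type DKK1. Arrb2 was at 7.98 CPM against 8.32 CPM in that pair. A deleted exon would not be visible in counts of all exons together, and the libraries are therefore called by their labels. The genes of the visual arrestins, Sag and Arr3, were at 0.0475 RPKM or less in each of the 4 set C libraries.

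**Figure D1:**
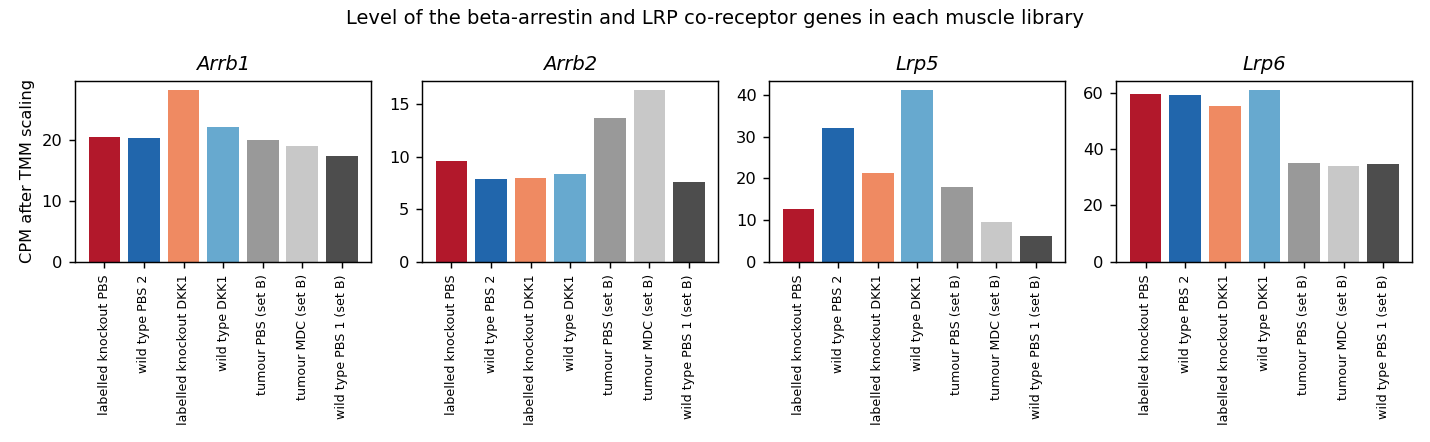
Bars give the CPM after TMM scaling of Arrb1, Arrb2, Lrp5 and Lrp6 in each of the 7 muscle libraries, 1 bar per library. For the library labelled knockout PBS against wild type PBS 2, Arrb1 is at 20.5 against 20.3 CPM and turns under total counts (log2 -0.12), Arrb2 is at 9.61 against 7.86 CPM, Lrp5 is lower (12.7 against 32.0 CPM), and Lrp6 is at 59.7 against 59.4 CPM and turns too (log2 -0.14).

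Of 10623 genes with 100 or more counts in the higher library of the PBS pair, 331 (3.12%) were at least 2-fold higher in the library labelled knockout and 719 (6.77%) at least 2-fold lower. The median log2 ratio of all genes was 0.04. In the DKK1 pair, 306 of 11582 genes (2.64%) were higher and 1152 (9.95%) lower by the same rule. Genes past the rule in the same direction in both pairs numbered 117 higher (1.11% of 10559) and 391 lower (3.70%), while 21 (0.199%) were lower in the PBS pair and higher in the DKK1 pair, and 1 (0.00947%) the other way. The shared genes made up 35.3% of the higher list of the PBS pair and 38.2% of that of the DKK1 pair. On the lower side they made up 54.4% and 33.9%. Across the 10559 genes the log2 ratios of the pairs correlated at r = 0.73, where genes are not independent replicates and the pairs share their set. Between the wild type PBS libraries, 1529 of 10701 genes (14.3%) were 2-fold higher in library 2 and 1296 (12.1%) lower, more genes past 2-fold than in the PBS pair. Scaling by total counts in place of TMM gave 220 higher and 965 lower in the PBS pair, and 155 and 1753 in the DKK1 pair.

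A test over the 4 set C libraries, with DKK1 as a term, called 874 genes higher (6.08% of 14366) and 1465 lower (10.2%) in the libraries labelled knockout (edgeR quasi-likelihood test, adjusted p under 0.05, 1 residual degree of freedom). With total counts it was 408 and 2438. Adjusted p values below are from this test. With 1 library for each genotype and treatment, the spread they use is the difference in genotype ratio between the 2 pairs, shared across genes. They do not measure spread between replicates, and the labels do not say that separate animals were used. Wild type library 1 is in set B, and the fits with it that follow had no term for set. Library and set thus changed together, and the part of each in the calls cannot be told apart. The calls depended on the use of wild type library 2. With wild type library 1 in its place edgeR called 0 genes higher and 1 lower, with 730 genes at an unadjusted p under 0.05. With both wild type PBS libraries it called 0 genes either way, with 739 genes at an unadjusted p under 0.05 and a smallest adjusted p of 0.895. In a fit over all 7 muscle libraries, knockout PBS against both wild type PBS libraries gave 0 calls, with 182 genes at an unadjusted p under 0.05. Values of wild type library 1 are therefore given for each list described at length, and comparisons with it share the library labelled knockout PBS.

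**Figure D2:**
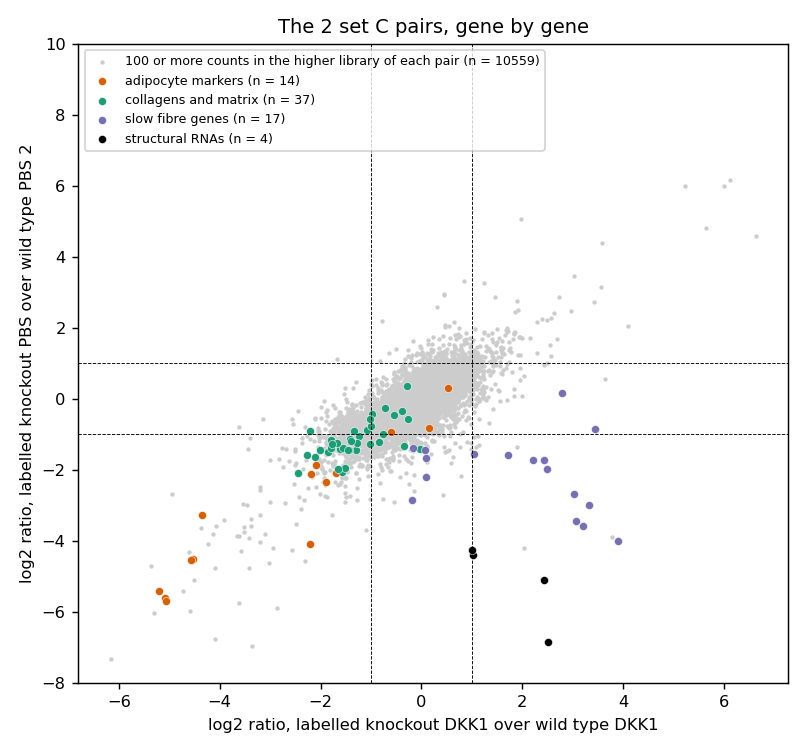
Each point is a gene, with its log2 ratio in the DKK1 pair on the horizontal axis and in the PBS pair on the vertical axis, and dashed lines mark 2-fold. Adipocyte markers and matrix genes are low on both axes. Slow fibre genes and the structural RNAs, which here include rRNA-like loci, are low in the PBS pair and mostly high in the DKK1 pair.

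Rpl29, the gene of a protein of the large ribosomal subunit, led the genes higher in the library labelled knockout. It was at 235 CPM there against 3.19 CPM in wild type library 2, and in the DKK1 pair at 268 CPM against 3.81 CPM. The 3 set B libraries lay between 12.4 and 13.6 CPM, so both libraries labelled knockout stood above every other muscle library. The ratio in the PBS pair was 73.8 (95% interval 58.6 to 94.3), and the adjusted p was 0.000221. The value is uncertain, because the longest Rpl29 transcript in GENCODE M21 matched 29 other genes at 90% identity or more over at least 50% of its length. Only 2 of those genes are in the tables, and together they were at 14.8 CPM in the PBS library labelled knockout against 12.1 CPM in wild type library 2.

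Both libraries labelled knockout stood at least 2-fold above each of the 5 other muscle libraries for 26 of 11904 genes (0.218%) and at least 2-fold below for 48 (0.403%), a rule chosen after the values were seen. The same rule applied to the 2 set C wild type libraries gave 106 genes higher (0.890%) and 41 lower (0.344%). Trim12a, a gene of the tripartite motif family of antiviral factors, had no counts in any wild type library. The libraries labelled knockout PBS and DKK1 had 4.50 and 4.46 CPM, at least 34.4-fold above wild type library 2 when its 0 is set to 3 counts. Its neighbour Trim30d was at 3.80 CPM against 0.349 CPM, and in the DKK1 pair at 3.31 CPM against 0.384 CPM. Both lie on chromosome 7, 4.69 and 4.86 Mb from Arrb1.

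Tfrc, which encodes the transferrin receptor that brings iron into cells, had 290 and 245 CPM in the libraries labelled knockout PBS and DKK1. The 5 other muscle libraries were between 103 and 114 CPM, a narrow range that both libraries labelled knockout lay above. In the PBS pair the ratio of Tfrc was 2.76 (95% interval 2.64 to 2.90; adjusted p = 0.00833, edgeR). Acp1, a small phosphatase of phosphotyrosine proteins, was at 57.4 and 53.9 CPM in the libraries labelled knockout PBS and DKK1, against 20.4 to 22.7 CPM in the 5 others. Fut10, a fucosyltransferase gene, was at 20.5 and 17.2 CPM, against 1.43 to 4.23 CPM. Tiam1, an activator of the GTPase Rac, was at 27.9 and 25.5 CPM, against 3.93 to 11.8 CPM. Unc5a, a netrin receptor gene, was at 21.8 and 22.2 CPM, against 0.960 to 8.30 CPM.

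The host gene of small nucleolar RNAs Snhg6 was at 11.4 CPM in the PBS library labelled knockout against 1.22 CPM in wild type library 2, and at 11 against 0.870 CPM in the DKK1 pair. Gpr75, an orphan receptor gene, had 4.13 CPM against 0.0873 CPM in the PBS pair, and Nxpe4 had 8.17 CPM against 1.18 CPM. Each of these lay above all 5 other muscle libraries in both libraries labelled knockout. The higher genes were spread over 13 chromosomes, and 2 of the 120 genes tested within 10 Mb of Arrb1 were among the 74 that stood apart (1.67%, against 0.606% of all 11873 with a position). Within 10 Mb of Arrb2 it was 1 of 257 (0.389%).

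On the lower side, Hemk1, a methyltransferase gene 0.898 Mb from Rpl29, was at 10.8 and 9.22 CPM in the libraries labelled knockout PBS and DKK1, against 28.9 to 35.3 CPM in the 5 other muscle libraries. Hddc3, which encodes a hydrolase of the alarmone ppGpp, was at 7.43 and 3.4 CPM, against 19.6 to 53.2 CPM. Gm12338, a predicted gene, was at 2.35 and 1.40 CPM, against 29.9 to 47.7 CPM. Its transcript is identical to a transcript of Cox7c over 192 bases, so its reads could be split between loci. Summed with its 2 near copies in the tables, Gm12338 was at 324 against 232 CPM in the PBS pair. In the DKK1 pair the sum was 293 against 287 CPM, and in wild type library 1 it was 742 CPM. The summed level was thus not lower in either set C pair. Of the 48 lower genes 11 were Mup genes, of the major urinary protein cluster, each with a near-identical copy. In all, 16 of the 74 genes had such a copy.

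**Figure D3:**
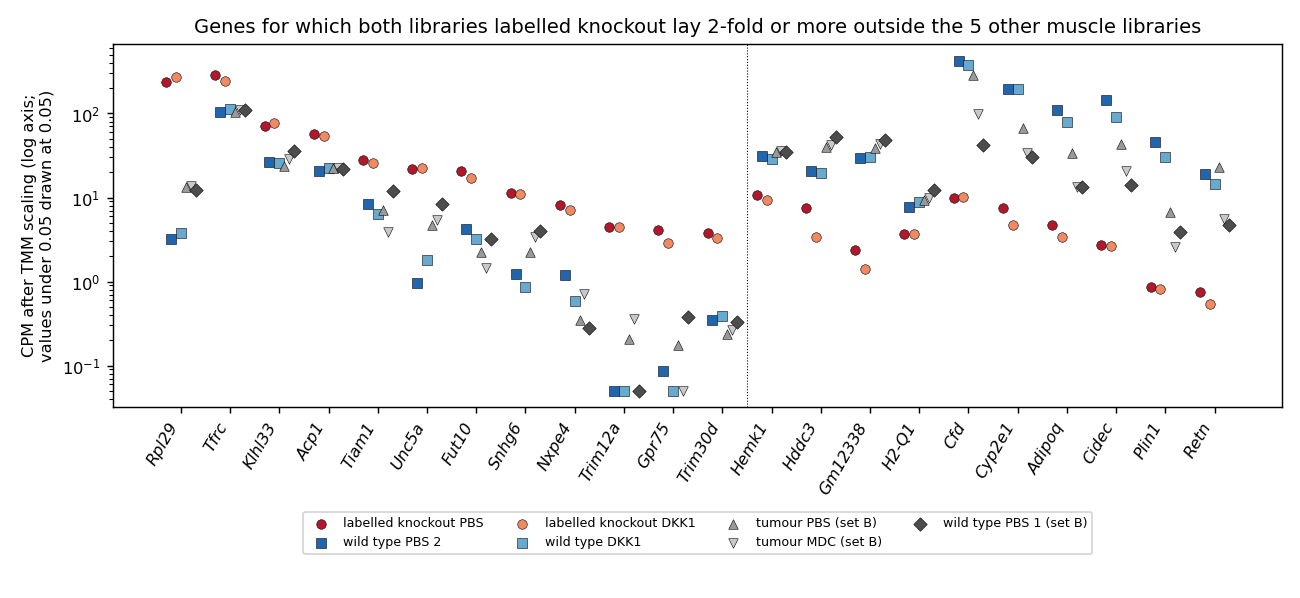
Points give the CPM of each of the 7 muscle libraries on a log axis for 22 of the genes that stood apart, those higher in the libraries labelled knockout left of the dotted line. Red and orange circles, the libraries labelled knockout PBS and DKK1, lie above all other symbols on the left and below them on the right.

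Other genes led the higher side without standing 2-fold above the set B libraries. Plet1os, a noncoding antisense gene, was at 8.0 CPM in the PBS library labelled knockout against 0.218 CPM in wild type library 2, but at 31.3 CPM in wild type library 1. Habp2, a serine protease gene, was at 6.89 against 0.218 CPM, and at 26.8 CPM in library 1. Tmc7, of the transmembrane channel-like family, was at 17.2 against 1.48 CPM, and at 14.4 CPM in library 1. Tagap1, which has a copy in Tagap at 99% identity, was at 45.2 against 6.15 CPM, and at 36.9 CPM in library 1. For these 4 genes it was the set C wild type libraries that were low. Rpl30 was at 70.3 CPM against 9.16 CPM, with 42.8 CPM in wild type DKK1 and 37.7 CPM in wild type library 1, so that wild type library 2 alone was low.

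Chac1, which degrades glutathione, was at 120 CPM in the PBS library labelled knockout against 17.5 CPM in wild type library 2. The ratio was 6.85 (95% interval 6.17 to 7.62). It was at 97.2 against 26.0 CPM in the DKK1 pair, where the direction was the same, and at 38.3 CPM in wild type library 1. The adjusted p was 0.00484 (edgeR).

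Adipocyte markers were low in the library labelled knockout PBS, with medians under 0 against both wild type PBS libraries and in the DKK1 pair. Of 14 markers with 100 or more counts in the higher library, 11 were at least 2-fold lower in the library labelled knockout PBS and 0 higher, with a median log2 ratio of -2.82. The DKK1 pair had 12 of 15 lower (median -2.21). Against wild type library 1, where 809 of 10404 genes were higher (7.78%) and 758 lower (7.29%), 4 of 9 markers were lower and 1 higher (median -0.90). Summed over the 16 markers the level was 1540 CPM against 2970 CPM in wild type library 2, and 1790 against 2540 CPM in the DKK1 pair. In wild type library 1 the sum was 1000 CPM, below that of the PBS library labelled knockout, although the median ratio to that library was under 0. One marker had no counts (1 of 16) in either library labelled knockout, and 0 had none in the set C wild type libraries. The test over set C called 14 of the 16 lower and 0 higher. In bulk muscle, fewer cells of a type and less RNA per cell cannot be told apart, and the labels do not say how muscle was trimmed.

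Cidec, a protein of the lipid droplet surface, was at 2.72 CPM in the PBS library labelled knockout against 144 CPM in wild type library 2. That is 52.8-fold lower (95% interval 41.4 to 68.4; adjusted p = 0.000425, edgeR). In the other muscle libraries Cidec was at 2.64 CPM in labelled knockout DKK1, 90.3 CPM in wild type DKK1, 43.3 and 20.6 CPM in tumour PBS and MDC, and 14.2 CPM in wild type library 1. Both libraries labelled knockout were thus lowest of the 7. Plin1, which coats the fat droplet, was at 0.866 CPM against 45.6 CPM, and Cfd, the secreted protease adipsin, at 9.98 CPM against 427 CPM. The hormone genes Adipoq (4.70 against 109 CPM), Retn (0.743 against 18.9 CPM) and Lep (1.07 against 11.1 CPM) were low as well. Adipoq and Retn were lowest in the libraries labelled knockout among all 7, whereas Lep was at 0.983 CPM in tumour MDC.

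Fabp4, the fatty acid carrier of fat and endothelial cells, was at 118 CPM in the PBS library labelled knockout against 431 CPM in wild type library 2, and Pparg, the nuclear receptor that drives fat cell formation, at 2.64 against 11.7 CPM. Among the adipocyte markers 6 of 16 stood apart from all 5 other libraries in both libraries labelled knockout. Genes outside the marker list with known roles in fat tissue were among the lowest of all. Arxes1 and Arxes2, adipocyte genes on chromosome X, were at 0.124 against 12.1 CPM and at 0.289 against 23.3 CPM. Mrap, an accessory protein of melanocortin receptors that fat cells express, had 0 counts against 8.86 CPM, at least 71.6-fold lower. Pck1, which supplies glycerol for fat storage in adipocytes and glucose in liver, was at 3.59 against 127 CPM. Cyp2e1, an oxidase of small molecules in liver and fat, was at 7.47 against 197 CPM.

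The lowest ratio of the PBS pair belonged to Gdpd3, a lysophospholipase D gene. It had 2 counts in the library labelled knockout PBS against 568 in wild type library 2, which is 0.0825 against 24.8 CPM and 300.0-fold lower (95% interval 82.8 to 2490). In the DKK1 pair it was at 0.425 against 35.5 CPM. The set B libraries were between 0.529 and 0.715 CPM, so the set C wild type libraries were high and the others low. Serpina3c had 1 count in the library labelled knockout PBS and 150 in wild type library 2, or 0.0413 against 6.55 CPM.

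Genes that make fatty acids, triglycerides and sterols were low in both set C pairs. In the PBS pair 10 of 24 were at least 2-fold lower and 1 higher (median -0.66), and in the DKK1 pair 11 of 26 were lower and 1 higher (median -0.64). The direction turned against wild type library 1, with 2 of 23 lower and 4 higher (median 0.18). Scd1, which desaturates stearate, was at 53.3 CPM in the PBS library labelled knockout against 781 CPM in wild type library 2, 14.7-fold lower (95% interval 13.9 to 15.5; adjusted p = 0.000425, edgeR). It was at 79.1 against 1000 CPM in the DKK1 pair. In set B it was at 139 and 54.2 CPM in tumour PBS and MDC and 62.2 CPM in wild type library 1, so the 2 set C wild type libraries stood above all others. Fasn, the fatty acid synthase, was at 17.7 against 139 CPM, and Agpat2, which builds phosphatidic acid, at 3.47 against 40.7 CPM. Dgat2, the last enzyme of triglyceride synthesis, was at 40.1 against 184 CPM, but at 10.1 CPM in wild type library 1. Me1, which makes NADPH, was the 1 higher member, at 441 against 173 CPM, and at 477 CPM in wild type library 1.

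Genes of fat oxidation and fasting were lower for 12 of 31 members and higher for 0 in the PBS pair (median -0.70), and lower for 4 of 31 and higher for 1 in the DKK1 pair (median -0.44). With wild type library 1 as the comparison 2 of 29 were lower and 3 higher (median -0.07). Angptl4, a secreted inhibitor of lipoprotein lipase, was at 2.81 CPM in the PBS library labelled knockout against 15.9 CPM in wild type library 2, and at 10.2 CPM in library 1. It stood below all 5 other libraries in both libraries labelled knockout. Acot1, an acyl-CoA thioesterase, was at 1.20 against 5.63 CPM in the PBS pair and at 4.22 against 2.41 CPM in the DKK1 pair. Bdh1, which interconverts ketone bodies, was at 24.5 against 100 CPM, with 0.797 CPM in wild type library 1.

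**Figure D4:**
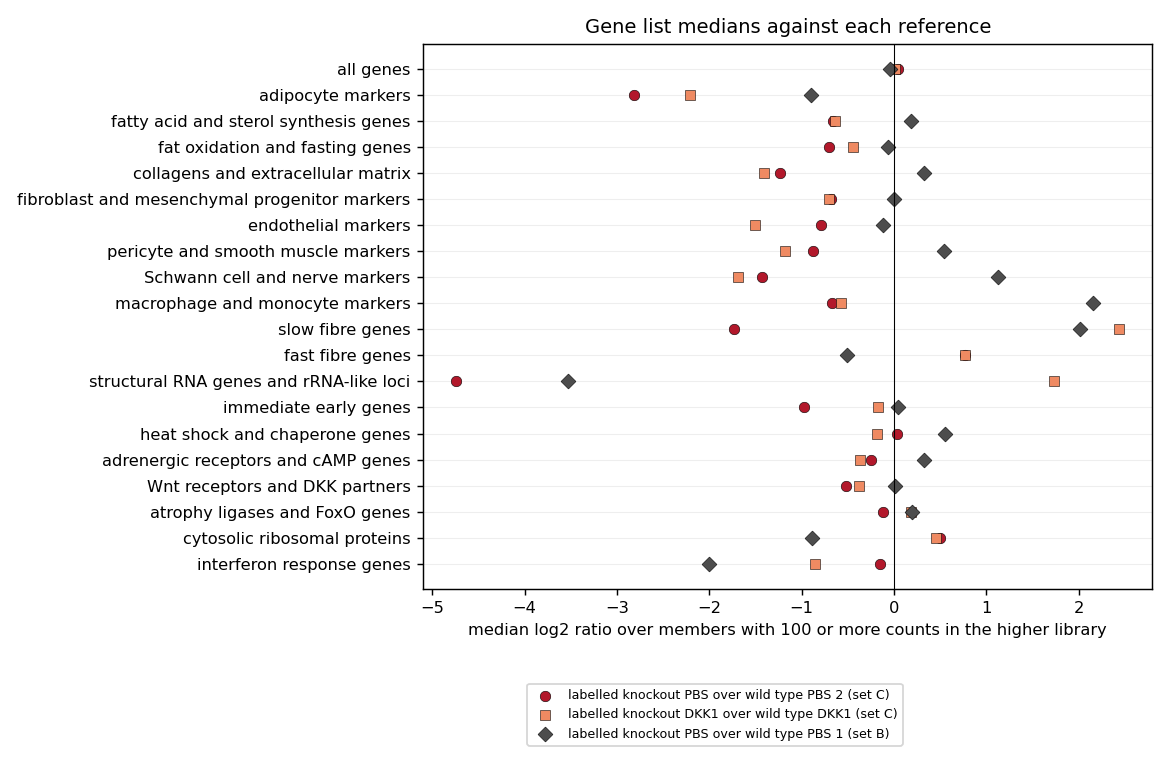
Each row is a gene list and each symbol its median log2 ratio over the members with 100 or more counts in the higher library, for the library labelled knockout PBS over wild type PBS 2 (circle), the DKK1 pair (square) and the library labelled knockout PBS over wild type PBS 1 (diamond). Adipocyte markers lie left of 0 for all 3 references (-2.82, -2.21 and -0.90), while matrix, nerve and slow fibre medians change side when wild type PBS 1 is the reference.

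Collagen and extracellular matrix genes were lower in both set C pairs, 26 of 38 at least 2-fold in the PBS pair with 0 higher (median -1.24), and 26 of 37 in the DKK1 pair with 0 higher (median -1.41). Against wild type library 1, 1 of 35 was lower and 3 were higher (median 0.32). The test over set C called 31 of 39 lower and 0 higher. Col3a1, a chain of fibrillar collagen, was at 155 CPM in the PBS library labelled knockout against 437 CPM in wild type library 2 and 136 CPM in library 1. Col1a1, the main chain of type I collagen, was at 43.3 against 115 CPM and 30.9 CPM in the same libraries. Both lay near wild type library 1 and well under wild type library 2. Spp1, the matrix protein osteopontin, was at 31.6 against 135 CPM, Col12a1 at 2.39 against 10.2 CPM, Lox, which crosslinks collagen, at 5.82 against 23.3 CPM, and Thbs1, a matricellular protein, at 7.51 against 29.4 CPM.

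Markers of nerve, vessel wall and endothelium were low beside the matrix genes. Schwann cell markers were lower for 5 of 6 members in the PBS pair (median -1.43) and 10 of 12 in the DKK1 pair (median -1.69), and summed to 88.0 CPM against 233 CPM in wild type library 2 and 44.2 CPM in library 1. Mbp, a protein of the myelin sheath, was at 11.4 CPM in the PBS library labelled knockout against 33.3 CPM in wild type library 2, and at 17.8 against 73.8 CPM in the DKK1 pair. Pericyte and smooth muscle markers were lower for 5 of 12 members (median -0.88), with Cnn1, a calponin of smooth muscle, at 1.32 against 6.98 CPM and Acta2, its actin, at 35.0 against 79.5 CPM. Endothelial markers were lower for 4 of 19 members in the PBS pair (median -0.79) and 17 of 19 in the DKK1 pair (median -1.51). Of these, Lyve1, a receptor of lymphatic endothelium, was at 5.61 against 14.7 CPM in the PBS pair and at 19.5 against 19.1 CPM in the DKK1 pair. Tek, a receptor of angiopoietins, was at 13.3 against 30.2 CPM. The pericyte and smooth muscle markers turned against wild type library 1, with 3 of 11 higher and 0 lower (median 0.54), and so did the Schwann cell markers, with 3 of 5 higher and 0 lower (median 1.13). Of the endothelial markers 1 of 19 was lower and 0 higher against that library (median -0.12).

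Fibroblast markers were lower for 4 of 16 members (median -0.68), but for 0 of 16 against wild type library 1, where 1 was higher (median -0.00). Of 25 macrophage and monocyte markers 7 were lower and 1 higher in the PBS pair (median -0.67). Of 23 markers 19 were higher and 1 lower against wild type library 1 (median 2.15). Mpeg1, a pore-forming protein of macrophages, was at 46.3 CPM in the PBS library labelled knockout against 103 CPM in wild type library 2, and at 3.75 to 10.7 CPM in the 5 other muscle libraries. The PBS libraries of set C were thus both high. Ly6c2, a marker of inflammatory monocytes, was the 1 higher member, at 5.03 against 1.09 CPM, with 4.87 CPM in wild type library 1. Neutrophil and lymphocyte markers had 0 members with 100 counts in the PBS pair. Skeletal muscle fibre markers summed to 197000 CPM against 141000 CPM in wild type library 2, far above the sum of any other marker list. In summed level, endothelial markers were at 1010 against 1890 CPM, fibroblast markers at 1060 against 2090 CPM, and pericyte and smooth muscle markers, against their median, at 4410 against 4040 CPM. The part of other cell types in the fat, matrix and vessel results was not tested.

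Slow fibre genes went opposite ways in the 2 set C pairs. In the PBS pair 15 of 17 were at least 2-fold lower in the library labelled knockout and 0 higher (median -1.73), while in the DKK1 pair 12 of 17 were higher and 0 lower (median 2.44). Against wild type library 1, 10 of 13 were higher and 0 lower (median 2.01). Myh7, the slow myosin heavy chain, was at 8.38 CPM in the PBS library labelled knockout against 135 CPM in wild type library 2, and at 2050 against 138 CPM in the DKK1 pair. It was at 34.1 and 332 CPM in tumour PBS and MDC and 2.30 CPM in wild type library 1, so the wild type PBS libraries lay on either side of the library labelled knockout PBS. The PBS ratio was 16.1-fold lower (95% interval 14.0 to 18.7), and the adjusted p for genotype was 0.998 (edgeR). The slow troponins followed: Tnnc1 was at 2.35 against 29.1 CPM, Tnni1 at 2.68 against 29.5 CPM and Tnnt1 at 5.78 against 46.6 CPM.

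Fast fibre genes were higher for 5 of 18 members and lower for 0 in the PBS pair (median 0.77), and higher for 4 and lower for 1 of 18 in the DKK1 pair (median 0.77). Against wild type library 1, 2 were higher and 4 lower (median -0.51). Myl1, the fast essential light chain, was at 12100 CPM in the PBS library labelled knockout against 5230 CPM in wild type library 2 and 23100 CPM in library 1. Actn3, the Z-disc actinin of fast fibres, was at 8850 against 4160 CPM, Pvalb, a calcium buffer, at 11700 against 5510 CPM, and Mylpf, the fast regulatory light chain, at 10200 against 4850 CPM. All 4 were higher still in wild type library 1, with Pvalb at 27200 CPM and Actn3 at 9940 CPM.

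On the per-length scale of RPKM as deposited, the type IIb myosin Myh4 was the main heavy chain in both libraries, at 8740 RPKM in the library labelled knockout PBS and 4870 RPKM in wild type library 2. Myh1, the type IIx chain, was at 913 RPKM against 1720 RPKM, the type IIa chain Myh2 at 237 against 497 RPKM, and Myh7 at 1.35 against 23.9 RPKM. The order of the 4 chains was the same in both libraries. Against wild type library 2, Myh4 was thus higher and the 3 slower chains lower. Wild type library 1 had 9720 RPKM of Myh4, 327 of Myh1, 21.5 of Myh2 and 0.298 of Myh7, so against it each of the 4 differed in the other direction. In CPM after TMM scaling these were log2 ratios of 0.98 for Myh4, -0.77 for Myh1, -0.93 for Myh2 and -4.00 for Myh7, of which Myh7 passed 2-fold. Mhrt, a noncoding RNA of the Myh7 locus, had a log2 ratio of -3.88, and without strand information its reads cannot be told apart from those of Myh7.

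**Figure D5:**
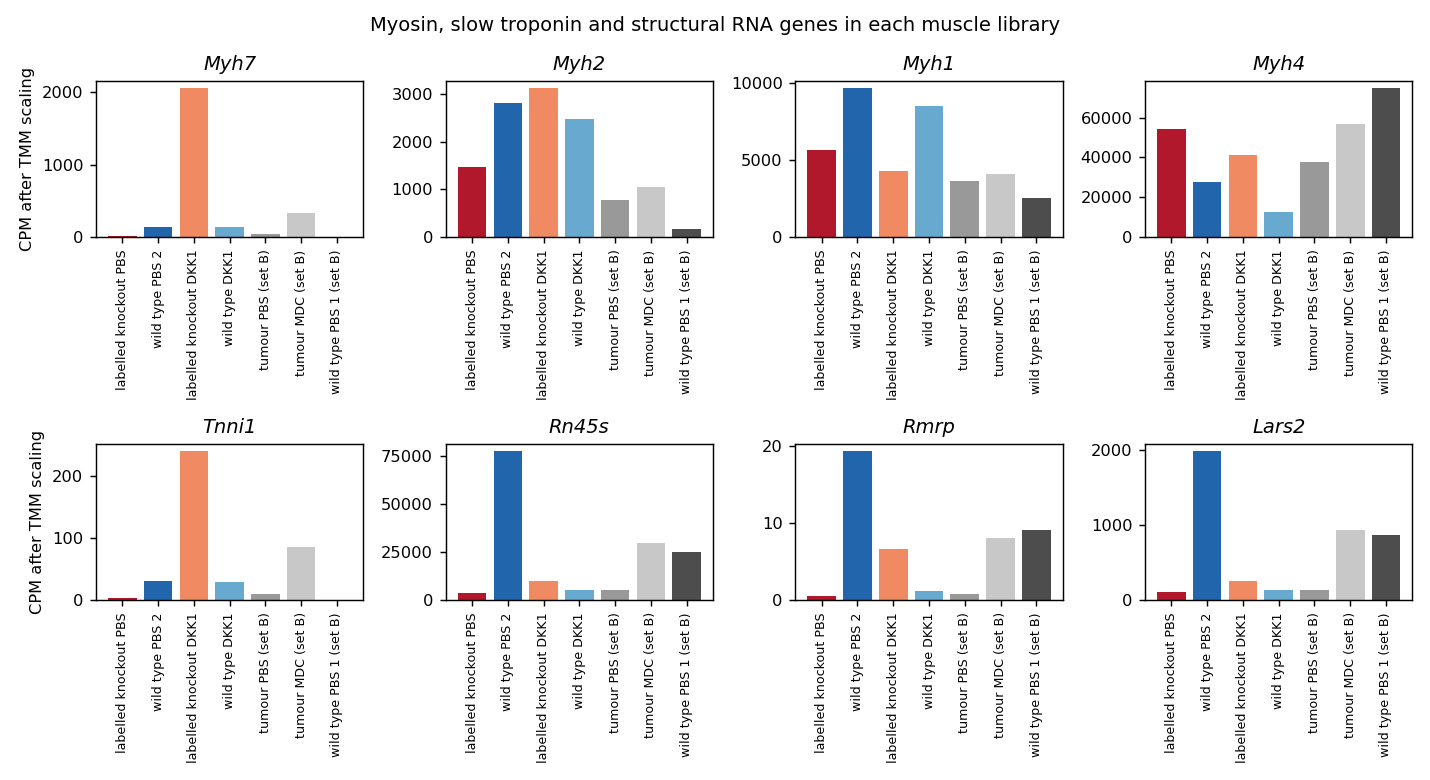
Bars give the CPM after TMM scaling in each of the 7 muscle libraries, 1 bar per library. Shown are 4 myosin heavy chain genes, the slow troponin gene Tnni1 and the structural RNA genes Rn45s and Rmrp. Lars2, a tRNA synthetase gene grouped here with the structural RNA genes and rRNA-like loci, is shown as well. Myh7 and Tnni1 are highest in the library labelled knockout DKK1, while Rn45s, Rmrp and Lars2 are highest in wild type PBS 2.

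Structural RNA genes and rRNA-like loci were far lower in the library labelled knockout PBS and also changed side between the pairs. All 4 with 100 or more counts passed 2-fold, lower in the PBS pair (median -4.74) and higher in the DKK1 pair (median 1.73), and all 4 were lower against wild type library 1 as well (median -3.53). Rn45s, the precursor of ribosomal RNA, took 0.359% of all counts in the library labelled knockout PBS against 8.29% in wild type library 2 and 1.96% in library 1, and 1.05% against 0.622% in the DKK1 pair. Its share was lowest of the 7 muscle libraries in the first and highest in the second. Rmrp, the RNA of the MRP ribonuclease, was at 0.495 against 19.3 CPM, and Rpph1, the RNA of ribonuclease P, had 0 counts against 8.12 CPM, at least 65.6-fold lower. Lars2, a mitochondrial leucyl-tRNA synthetase gene, is not a structural RNA but was grouped here with the rRNA-like loci. It was at 104 against 1980 CPM and put the 7 libraries in the same order as Rn45s. Whether its counts come from the synthetase mRNA was not tested. How ribosomal RNA was removed is not given in the sources used here, and its part in this result was not tested.

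Long nuclear RNAs were higher for 4 of 9 members in the PBS pair and lower for 1, Mhrt (median 0.38). In the DKK1 pair 3 of 9 were higher and 0 lower (median 0.88). Against wild type library 1, 1 of 9 was higher and 0 lower (median 0.26). Neat1, the scaffold of paraspeckles, was at 968 CPM in the PBS library labelled knockout against 354 CPM in wild type library 2, and at 793 against 265 CPM in the DKK1 pair. Malat1, of nuclear speckles, was at 619 against 298 CPM in the PBS pair. Gas5, a host gene of small nucleolar RNAs, was at 56.7 against 15.5 CPM, and Meg3, an imprinted RNA, at 8.05 against 3.84 CPM. In wild type library 1 Neat1 was at 923 CPM and Meg3 at 15.7 CPM, so that neither was high against that library.

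Heat shock genes held a small group with large differences. In the PBS pair 5 of 25 members were lower and 0 higher (median 0.03), and in the DKK1 pair 6 of 25 were lower and 0 higher. It was the opposite against wild type library 1, with 6 of 25 higher and 0 lower (median 0.55). Hspa1a and Hspa1b, which encode inducible HSP70, Hspb1, a small heat shock protein, and Dnajb1, an HSP40 co-chaperone, were lower in both pairs. Heat shock factor binds inverted repeats of GAA, and the promoters of the first 3 are shown because they carry such a pair before the transcript start. The 150 bases before each start (RefSeq, GRCm38.p6) are given with GAANNTTC or TTCNNGAA in capitals.
Hspa1a, chr17:34972157-34972306, minus strand: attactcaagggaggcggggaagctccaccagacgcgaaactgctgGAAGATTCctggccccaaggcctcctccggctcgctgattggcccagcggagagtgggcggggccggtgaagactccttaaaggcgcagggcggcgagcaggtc
Hspa1b, chr17:34959239-34959388, minus strand: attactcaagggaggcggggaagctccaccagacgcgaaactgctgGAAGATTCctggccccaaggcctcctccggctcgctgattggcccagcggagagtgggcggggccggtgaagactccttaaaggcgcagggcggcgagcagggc
Hspb1, chr5:135887769-135887918, plus strand: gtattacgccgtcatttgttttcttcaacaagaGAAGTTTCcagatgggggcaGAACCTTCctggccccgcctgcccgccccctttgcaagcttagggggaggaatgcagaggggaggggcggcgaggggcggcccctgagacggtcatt

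Both motifs read the same on either strand, and either was in 3489 of 27025 promoters (12.9%) over the 250 bases before the start. Of the 25 heat shock genes 19 had a promoter in the RefSeq set, and 6 of them held a motif, 3 of the 4 that were lower in both pairs and 3 of the other 15. The Hspa1a and Hspa1b promoters shown are near-identical and hold the same GAAGATTC at position -104 from the start. They are therefore not separate cases in these counts. Such matches describe letters and not sites. The Hspa1a and Hspa1b transcripts match at 99.2% identity over 2201 bases, so reads may be split between them.

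Hspa1a was at 25.3 CPM in the PBS library labelled knockout against 189 CPM in wild type library 2, 7.50-fold lower (95% interval 6.89 to 8.17). It was at 43.5 against 349 CPM in the DKK1 pair, and in wild type library 1 at 4.59 CPM. The adjusted p was 0.000567 (edgeR). Hspa1b was at 22.0 against 175 CPM in the PBS pair, 32.9 against 364 CPM in the DKK1 pair, and 3.56 CPM in wild type library 1. For both, the set C wild type libraries were the highest of the 7 and the libraries labelled knockout lay between them and set B. Hspb1 was at 195 against 618 CPM and Dnajb1 at 15.1 against 36.2 CPM, with 204 and 6.47 CPM in wild type library 1. Hspb7, a small heat shock protein of heart and muscle, was at 311 against 881 CPM in the PBS pair, but at 674 against 485 CPM in the DKK1 pair.

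Immediate early genes, which cells induce within minutes of a stimulus, were lower for 10 of 23 members in the PBS pair and higher for 0 (median -0.98). The DKK1 pair had 4 of 25 lower and 2 higher (median -0.17), and against wild type library 1 it was 1 of 22 lower and 2 higher (median 0.04). Atf3, a stress-induced transcription factor, was at 6.52 CPM in the PBS library labelled knockout against 36.0 CPM in wild type library 2, and at 8.22 against 23.6 CPM in the DKK1 pair. Arc, a gene that neurons switch on with activity, was at 4.13 against 11.8 CPM, and Ier3 at 5.78 against 14.9 CPM. Fos, a subunit of the AP-1 factor, was at 29.8 against 75.8 CPM in the PBS pair and at 77.7 against 20.8 CPM in the DKK1 pair, with 34.1 CPM in wild type library 1. Atf3 and Arc in wild type library 1 were at 2.20 and 1.31 CPM, under both PBS libraries of set C.

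Beta-adrenergic receptors are the classic cargo of beta-arrestins. Among 25 adrenergic and cAMP genes 6 were lower and 0 higher in the PBS pair (median -0.25), and 9 of 29 were lower and 0 higher in the DKK1 pair (median -0.37). Wild type library 1 as the comparison gave 2 of 20 lower and 1 higher (median 0.32). Adrb3, the receptor of fat cells, had 0 counts in the library labelled knockout PBS against 7.68 CPM in wild type library 2, at least 62.1-fold lower, and was at 0.182 against 4.25 CPM in the DKK1 pair. It was at 1.22 CPM in wild type library 1. Prkar2b, a regulatory subunit of protein kinase A, was at 1.40 against 36.1 CPM, Pde3b, a phosphodiesterase that insulin activates in fat, at 1.44 against 21.1 CPM, and Adcy5, an adenylyl cyclase, at 2.27 against 9.82 CPM. In wild type library 1 they were at 3.94, 1.55 and 0.375 CPM, so Adcy5 was higher in the library labelled knockout PBS than there. Adipocyte markers were low in the same libraries, and their part in the adrenergic values was not tested.

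The arrestins, their relatives and the kinases that recruit them had 0 of 10 members past 2-fold in the PBS pair, while in the DKK1 pair 2 of 11 were higher and 1 lower, and against wild type library 1 it was 1 of 10 higher and 0 lower. Of 27 genes of clathrin endocytosis and recycling 2 were lower and 0 higher (median -0.04). These were Cav1, the coat protein of caveolae, at 211 CPM in the PBS library labelled knockout against 430 CPM in wild type library 2, and Dab2, a clathrin adaptor, at 15.6 against 33 CPM. In wild type library 1 they were at 274 and 16.2 CPM.

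LRP6 is the receptor that the study concerns. Lrp6 was at 59.7 CPM in the PBS library labelled knockout against 59.4 CPM in wild type library 2, with a ratio of 1.00 (95% interval 0.931 to 1.08), and at 34.6 CPM in wild type library 1. Its log2 ratio of 0.01 became -0.14 with total counts. Lrp5, the related co-receptor, was at 12.7 against 32.0 CPM, 2.52-fold lower (95% interval 2.20 to 2.88), and at 21.4 against 41.3 CPM in the DKK1 pair, with 6.05 CPM in wild type library 1. The adjusted p for Lrp5 was 0.00988 (edgeR). The DKK1 receptors Kremen1 and Ckap4 were at 56.2 against 102 CPM and 11.1 against 21.8 CPM, neither past 2-fold, and Dkk1 had 0 counts in all 4 set C libraries.

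Of 19 Wnt receptors and DKK partners 4 were lower and 1 higher in the PBS pair (median -0.52), and 5 of 23 were lower and 3 higher in the DKK1 pair (median -0.38). Against wild type library 1, 2 of 14 were lower and 2 higher (median 0.01). Sfrp2, a secreted Wnt antagonist of fibroblasts, was at 0.495 CPM in the PBS library labelled knockout against 5.37 CPM in wild type library 2, and Sfrp1 at 1.32 against 5.19 CPM. Fzd2, a frizzled receptor, was at 1.65 against 5.11 CPM. Fzd6 was higher, at 5.65 against 2.40 CPM, but at 7.45 CPM in wild type library 1. Among 17 Wnt pathway and target genes 1 was lower and 0 higher (median 0.04). This was Wisp2, at 1.65 against 5.67 CPM. Axin2, the common readout of Wnt signalling through beta-catenin, was at 6.31 against 7.99 CPM.

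The muscle ubiquitin ligase genes Fbxo32 and Trim63, the common markers of wasting, did not pass 2-fold in the PBS pair. Fbxo32, which encodes atrogin-1, was at 341 CPM in the PBS library labelled knockout against 216 CPM in wild type library 2 and 346 CPM in library 1. Trim63, which encodes MuRF1, was at 219 against 119 CPM and 247 CPM in the same libraries. In the DKK1 pair they were at 384 against 93.4 CPM and 251 against 121 CPM, both past 2-fold. Adjusted p values were 0.0416 for Fbxo32 and 0.0117 for Trim63 (edgeR, set C). Over the 26 atrophy and FoxO genes 3 were lower and 0 higher in the PBS pair (median -0.12). In the DKK1 pair 3 were higher and 0 lower (median 0.18), and 1 was lower and 4 higher against wild type library 1 (median 0.19). The 3 lower in the PBS pair were the metallothionein genes Mt1 (15.8 against 48.5 CPM) and Mt2 (11 against 27.9 CPM) and the ligase gene Fbxo21 (14.3 against 43.9 CPM).

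Acute phase and STAT3 genes were lower for 8 of 18 members and higher for 2 (median -0.94), and lower for 1 of 14 and higher for 4 against wild type library 1 (median -0.21). Hp, the haemoglobin scavenger haptoglobin that liver and fat secrete, was at 5.28 CPM in the PBS library labelled knockout against 230 CPM in wild type library 2, and at 2.64 against 71.4 CPM in the DKK1 pair. It was at 6.70 CPM in wild type library 1. Serpina3n, a protease inhibitor, was at 3.84 against 64.3 CPM, and Orm1, an acute phase glycoprotein, at 0.454 against 5.46 CPM. The cytokine feedback genes Cish and Socs2 were higher, at 33.8 against 7.29 CPM and 28.1 against 12 CPM. They were at 32.3 against 55.9 CPM and 24.6 against 29.5 CPM in the DKK1 pair, so their direction was not shared. Liver markers, a list of 14 that includes Pck1 and Cyp2e1, summed to 30.5 CPM in the library labelled knockout PBS against 347 CPM in wild type library 2, to 11.6 against 254 CPM in the DKK1 pair, and to 69.3 CPM in wild type library 1. Pck1 and Cyp2e1, whose values are given above, made up most of the sum in wild type library 2. Of 5 liver markers with 100 or more counts in the PBS pair, 2 were lower and 0 higher (median -0.93). The part of liver or fat RNA in these values was not tested.

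Several lists had few members past 2-fold. Autophagy and lysosome genes had 0 of 27 past it, circadian clock genes 0 of 19, polyamine genes 0 of 12 and respiratory chain subunits 0 of 38, with medians of -0.03, -0.10, 0.13 and 0.07. Proteasome subunits had 1 of 31 higher and 0 lower (median 0.26). Cytosolic ribosomal proteins had 2 of 44 higher and 0 lower, with a median of 0.50 against -0.89 with wild type library 1 as the comparison. Interferon response genes had 2 of 31 higher and 2 lower in the PBS pair (median -0.15), 15 of 37 lower in the DKK1 pair, and 25 of 35 lower against wild type library 1 (median -2.00). They summed to 2790 CPM in wild type library 1 and to between 351 and 578 CPM in every other muscle library, so library 1 alone was high. Pfkfb3, which makes an activator of glycolysis, was at 334 against 89.8 CPM, and at 359 CPM in wild type library 1. Sarcomere structure genes had more members past 2-fold, with 5 of 31 lower and 1 higher in the PBS pair (median 0.17). In the DKK1 pair 4 were higher and 0 lower (median 0.56). Against wild type library 1, 6 were higher and 1 lower (median 0.20). In the PBS pair Xirp1 was at 96.0 against 425 CPM and its relative Xirp2 at 3480 against 1700 CPM.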

How the data were processed

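Each deposited table lists 24421 gene symbols with a raw count, not normalised by the authors, and an RPKM value, which recomputation from count and length matched within 5e-04 percent for genes with 100 or more counts. Per the submitters' processing notes, reads were aligned with HISAT2 2.1.0 to mm10. Which counter and strand setting were used, and what became of multiply aligned reads, is not given in the sources used here. Total counts were 24923134 in knockout PBS, 21358854 in wild type PBS library 2 and up to 32607835 in the other muscle libraries. CPM used TMM factors over 15482 filtered genes of the 7 muscle libraries (edgeR 4.0.16, R 4.3.3), and log2 ratios a prior count of 2. RPKM served for levels per length. Genes with the same counts in every library (52 genes in 23 groups) were counted once. A count of 0 was set to 3 counts for a fold. Ratios have exact binomial (Clopper-Pearson) 95% intervals.

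Genotype was tested over set C with edgeR's quasi-likelihood test (filterByExpr, 14366 genes, Benjamini-Hochberg adjustment), checked on simulated counts, where at the fitted spread it recovered 100 of 100 genes changed 4-fold and called 11 unchanged genes. There the 2-fold rule of the pair caught 90 of those 100 and passed 91 unchanged genes. The simulated counts held no difference between sets and none in DKK1 response between genotypes. They do not show how the test behaves where such differences exist. The fitted spread, as edgeR's common biological coefficient of variation, was 0.174 over set C and 0.405 with both wild type PBS libraries. DESeq2, limma-voom, other scalings, filters and reference libraries were alternatives. Transcripts were compared with BLASTN. Gene lists without a member past 2-fold in numbers (3 members or 20%) are described in brief. Named genes were the 12 highest and 12 lowest ratios, up to 4 per described list and direction, and a panel. To these came 8 genes in each direction among those past 2-fold the same way in both pairs. They had the largest value of the smaller of the 2 absolute log2 ratios. Others, such as Col3a1, Adipoq and the genes that stood apart, were picked once values were known. Members and lists were chosen with earlier results of these data known. Sex-linked genes, kidney and a few other genes are not reported here.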

Additional observations from a re-analysis of the deposited data

Results flagged for a closer look

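Slow fibre genes differed in direction between the 2 set C pairs, with a median log2 ratio of -1.73 for knockout PBS over wild type PBS library 2 and 2.44 for knockout DKK1 over wild type DKK1. Structural RNA genes and rRNA-like loci did so too, with medians of -4.74 and 1.73. In all, 21 genes were 2-fold lower in the PBS pair and 2-fold higher in the DKK1 pair, among them Myh7, Tnnc1, Rn45s and Fos, and 1 gene, Xaf1, was higher in the PBS pair (log2 ratio 1.13) and lower in the DKK1 pair (-1.67). With 1 library in each cell of the design the difference between the pairs was not tested.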

How the results depend on the processing

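No paired analysis was possible because nothing in the labels ties libraries to a common animal or litter. With DESeq2 size factors, TMM over set C alone, or a mean of 100 counts over the 7 muscle libraries as the minimum, every count past 2-fold moved by under 1.5 times. For the PBS pair (higher, lower), 220 were higher with total counts, 161 and 1293 with totals without structural RNA, 758 and 1613 with a minimum of 10 counts, 1386 and 2404 with no minimum, and 36 and 132 at 4-fold. For the DKK1 pair they were 155 and 1753, 158 and 1731, 684 and 1962, 972 and 2369, and 50 and 169 in the same order. For both pairs they were 71 and 628, 66 and 801, 222 and 754, 317 and 970, and 17 and 59. With wild type library 1 in place of library 2, 809 genes were higher, and against each wild type PBS library 78 were higher and 67 lower. Between the wild type PBS libraries total counts gave 2636 higher and 546 lower. Total counts shifted the median log2 ratio of the PBS pair to -0.10. The test over 7 libraries for knockout PBS called 0 and 0. For genotype, 408 were higher and 2438 lower with total counts, 1402 higher with no filter and 1379 higher with 7 libraries. That genotype fit had terms for set and for each tumour group, so its residual came from set C alone. The genotype test called 0 and 1 with wild type library 1 in place of library 2, and 0 and 0 with both. The cause was not tested.

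Of 122 genes, the 2 near a ratio of 1, Arrb1 and Lrp6, changed sign with another scaling, to -0.12 and -0.14 with total counts, -0.01 and -0.02 with TMM over set C, and -0.25 and -0.26 with totals without structural RNA. Total counts changed the sign of 5 of 45 list medians. With wild type library 1 in place of library 2, 25 of 45 list medians and 50 of 122 genes changed sign. For 3 medians and 42 genes the ratio to library 2 had passed 2-fold, the medians over the same members going to 2.01 for slow fibre, 0.39 for matrix and 1.17 for Schwann cell genes. The log2 ratios of the 42 genes became positive for Chil3 5.02, Bdh1 4.82, Tnni1 4.06, Mpeg1 3.10, Hspb7 2.75, Hspa1b 2.60, Hspa1a 2.44, Adcy5 2.39, Dgat2 1.99, Mhrt 1.95, Tnnc1 1.94, Thbs1 1.93, Myh7 1.83, Fcer1g 1.81, Tnnt1 1.81, Cnn1 1.64, Arc 1.60, Atf3 1.54, Prx 1.42, Col12a1 1.29, Dnajb1 1.21, Acta2 1.09, Lrp5 1.06, Mt2 1.04, Flt1 0.77, Lox 0.72, Mbp 0.70, Lyve1 0.56, Spp1 0.50, Col1a1 0.49, Xirp1 0.28 and Col3a1 0.19. They became negative for Plet1os -1.96, Habp2 -1.95, Pvalb -1.22, Mylpf -1.09, Meg3 -0.96, Myl1 -0.93, Fzd6 -0.39, Actn3 -0.17, Me1 -0.11 and Pfkfb3 -0.11. Under 2-fold, 8 genes changed sign, to 3.15 for Myh2, 1.18 for Myh1, 0.56 for Axin2, 0.42 for Kremen1, 0.31 for Ckap4, -0.02 for Fbxo32, -0.17 for Trim63 and -0.46 for Myh4. Of the 22 further medians, macrophage went to 2.15, pericyte to 0.68 and fatty acid and sterol synthesis to 0.17. Fast fibre went to -0.51 and ribosomal protein genes to -0.89. The cause was not tested. With 1 library a side, depth sets only the counting error.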
